A study of Mus musculus with 4 samples.

Results

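The expression of the liver X receptor (LXR) system was examined in IMQ-treated dorsal skin of mice fed with or without 7-ketocholesterol (7KC), an oxidized cholesterol. The genes were taken by symbol and were the 2 receptors, *Nr1h2* and *Nr1h3*, and 6 direct target genes, *Abca1*, *Abcg1*, *Mylip*, *Lpcat3*, *Srebf1* and *Apoe*. These 8 genes were present in each library, which listed 24346 gene symbols. RNA was sequenced from the dorsal skin of wild type male C57BL/6 mice. In the Cont-IMQ group (n = 2 libraries), mice received the NASH diet, rich in fat, cholesterol, sucrose and bile salt, for 3 weeks and then IMQ (imiquimod) cream, an agonist of Toll-like receptor signaling that induces psoriasis-like dermatitis, for 1 day. In the 7KC-IMQ group (n = 2 libraries), 7KC was added to the same diet, and the cream was the same. The mice were 8 weeks old when the feeding began. Both groups therefore carried the cholesterol-rich diet and the IMQ treatment, and neither untreated skin nor skin on a normal diet is part of the comparison. Nothing in the labels says whether a library came from 1 mouse or from a pool, so that the p-values measure the spread between these libraries.

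LXRs are nuclear receptors that bind oxysterols, form a heterodimer with the retinoid X receptor (RXR) and sit on DNA elements made of repeated short motifs. Without ligand they hold corepressors at their targets, and with ligand they recruit coactivators. The targets lower the free cholesterol of a cell by export through ABCA1 and ABCG1, by apolipoprotein E as an acceptor and by MYLIP (also called IDOL), which limits the uptake of lipoproteins, while SREBP-1c and LPCAT3 change the fatty acids of membranes and stores. In skin, keratinocytes, sebocytes and macrophages express LXRs, which are known for roles in epidermal differentiation and lipid supply to the barrier.

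LXR elements of the DR4 type consist of 2 direct repeats of a 6-base motif with 4 bases between them, here written as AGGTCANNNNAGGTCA. Promoter windows of RefSeq (GRCm38.p6, from 250 bases before to 50 bases after a gene's start) were searched on both strands for the best match to the 12 fixed letters. The table held windows for 7 of the 8 genes, all but *Abcg1*. A match with at most 3 mismatches was present in 1 window each of *Abca1* and *Srebf1*, and such matches are common, as 21.9% of the 32851 windows hold one. Windows of *Nr1h2*, *Nr1h3*, *Lpcat3* and *Apoe* matched with 4 mismatches at best and that of *Mylip* with 5. The matches of *Abca1* and *Srebf1* and that of *Fasn* (fatty acid synthase), a gene of the wider LXR list described further on, are shown because they are nearly the same 16 bases. They are given 5′ to 3′ on the strand of the gene with 20 bases on either side, and capitals mark the match, which lies on the opposite strand.
*Abca1*, chr4:53159927-53159982, minus strand: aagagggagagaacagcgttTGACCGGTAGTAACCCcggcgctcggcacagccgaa
*Srebf1*, chr11:60210618-60210673, minus strand: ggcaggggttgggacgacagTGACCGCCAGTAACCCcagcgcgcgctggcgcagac
*Fasn*, chr11:120824737-120824792, minus strand: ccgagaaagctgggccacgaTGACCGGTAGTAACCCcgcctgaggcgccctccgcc
In *Abca1*, the match lies 67 to 52 bases before the start, outside any gene in GENCODE M21. In *Srebf1*, it lies 182 to 167 bases before the innermost of 3 listed starts, in an intron of the gene, and an internal start is known to produce the LXR-responsive SREBP-1c form. In *Fasn*, it lies 225 to 210 bases before the start and outside any gene. Read as the repeat, the 3 matches share the pattern GGGTTACTNNCGGTCA, which was derived from them and occurs in 3 of the 32851 windows, those of *Abca1*, *Srebf1* and *Fasn*. A match of letters describes the window and does not show binding.

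The 8 genes were expressed in all 4 libraries, and their levels can be compared because FPKM values are fragments scaled both to the length of a gene's exons and to the depth of a library. Each pair of values below gives replicates 1 and 2 of a group, first for Cont-IMQ and then for 7KC-IMQ. *Apoe* had by far the highest level, with a mean of 1712 ± 217 FPKM (SD over the 4 libraries), and stood 60th in level among the 15896 genes tested. *Lpcat3* followed with 51.7 ± 7.05 FPKM, then *Nr1h2* with 41.7 ± 2.97 FPKM and *Srebf1* with 31.3 ± 2.48 FPKM. *Mylip* had 15.4 ± 3.96 FPKM, *Abca1* 11.7 ± 1.59 FPKM, *Nr1h3* 11.6 ± 2.77 FPKM and *Abcg1* 8.43 ± 0.376 FPKM. Neighbors in this order whose ranges overlapped were *Lpcat3* and *Nr1h2*, *Mylip* and *Abca1*, and *Abca1* and *Nr1h3*. *Abca1* was above *Nr1h3* in 2 of the 4 libraries, whereas the other neighbors kept their order in each of the 4 libraries. Depth was estimated from the low values at between 14960000 and 16330000 mapped reads per library. Reads of a gene were estimated with its longest annotated transcript, and a shorter length would give fewer reads and a larger counting error. The fewest estimated reads of any of the 8 genes was 272, for *Nr1h3* in 7KC-IMQ replicate 2, a counting error of 6.06%. As a check of the tissue, the keratinocyte genes *Krt5* and *Krt14* had at least 2544 FPKM in each library, and the hepatocyte gene *Alb* had at most 1.93 FPKM.

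**Figure D1:**
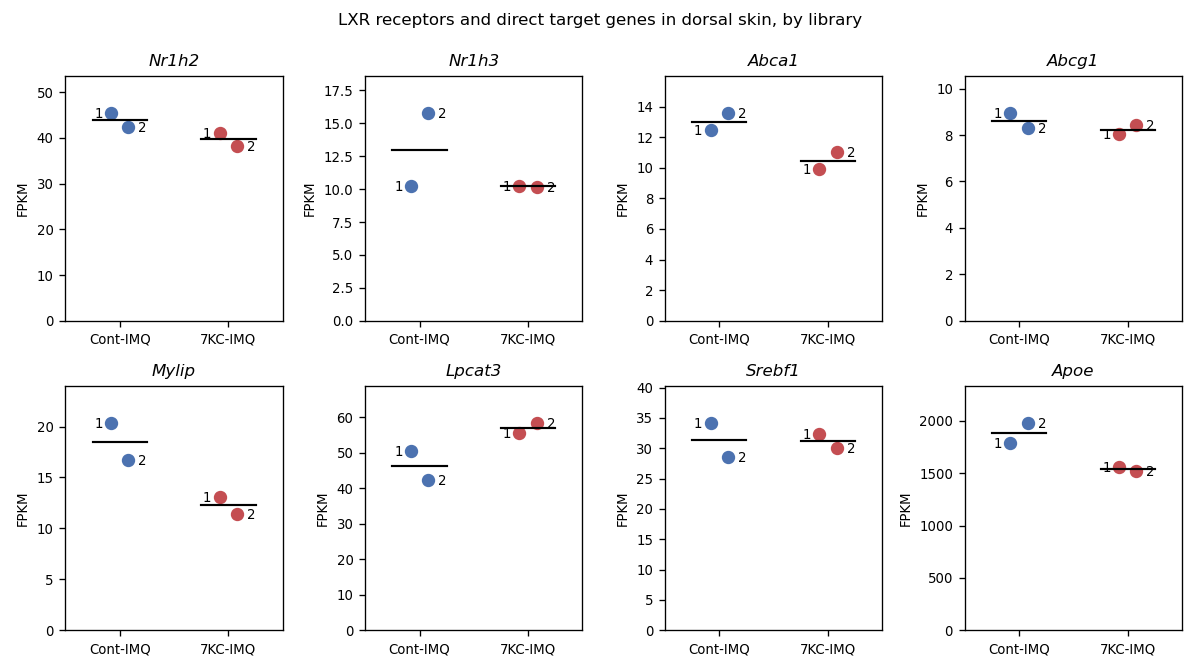
FPKM (y axis, from 0) of the 2 LXR receptors and 6 direct target genes in the 2 Cont-IMQ (blue) and 2 7KC-IMQ (red) libraries, with the replicate number beside each point and the group mean as a bar. *Abca1*, *Mylip* and *Apoe* lie lower in both 7KC-IMQ libraries, *Lpcat3* lies higher, and the high *Nr1h3* mean of the Cont-IMQ group comes from replicate 2 at 15.8 FPKM.

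To examine whether the LXR genes differed between the diets, log2(FPKM + 1) was compared by limma across the 15896 genes with a mean of at least 0.1 FPKM, and differences are given as 7KC-IMQ minus Cont-IMQ. The export and uptake genes *Abca1* and *Mylip* and the apolipoprotein gene *Apoe* had lower levels with 7KC, at 0.663 to 0.815 of the Cont-IMQ mean. *Lpcat3* was higher, at 1.23 of the Cont-IMQ mean, and *Srebf1* and *Abcg1* had nearly equal means. None of the 8 genes passed an adjusted p-value of 0.05 (Benjamini-Hochberg over all genes tested, limma, adjusted p = 0.356 to 0.998), where 1 gene in all did so (0.00629% of genes tested). That gene was *Mir24-2*, a microRNA gene listed at 549 and 555 FPKM (Cont-IMQ) against 0 in both 7KC-IMQ libraries. Such an entry of 0 may stand for an estimate that failed, so a loss of this RNA is not shown. At an unadjusted p-value under 0.05, 2 of the 8 genes were lower (*Abca1* and *Mylip*), against 5.47% of all genes tested, and 1 was higher (*Lpcat3*), against 7.5%. The total of 3 was 4 without Cont-IMQ replicate 1, 1 without Cont-IMQ replicate 2 or 7KC-IMQ replicate 1, and 0 without 7KC-IMQ replicate 2, while the share of all genes was 14.7%, 13.7%, 7.15% and 3.87% in that order. Both 7KC-IMQ libraries lay below both Cont-IMQ libraries in 5 of the 8 genes, against 22.9% of genes tested, and above them in 1 gene, against 23.9%. The median difference of the 8 genes was -0.22 on the log2 scale, and that of all genes tested was -0.01. The genes were chosen with earlier results of these libraries known, so the counts are a description. In bulk skin, fewer cells of a type and less RNA per cell cannot be told apart.

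**Figure D2:**
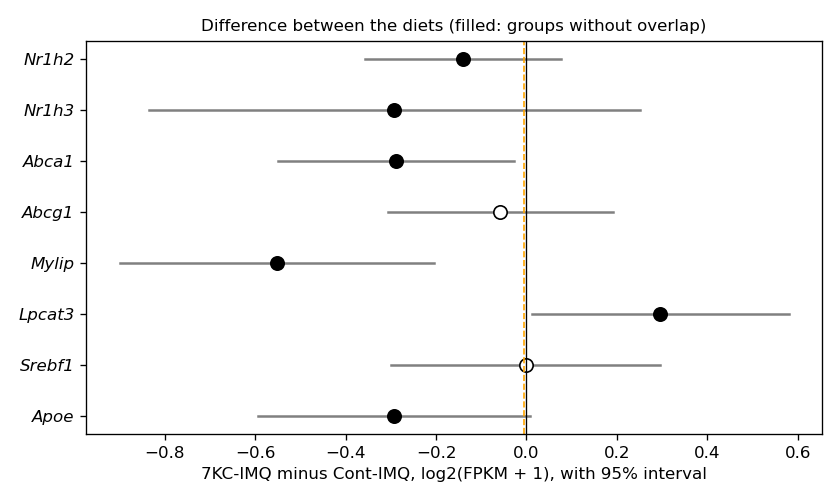
Difference between the diets for each gene (x axis, 7KC-IMQ minus Cont-IMQ on the log2(FPKM + 1) scale) with the 95% interval from limma as a gray line. Filled points mark groups without overlap, the dashed line marks the median of all genes tested (-0.01), and the intervals of *Abca1*, *Mylip* and *Lpcat3* do not reach 0 before adjustment.

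Of the receptors, *Nr1h2* (LXRβ, the form present in most tissues) lies on chromosome 7 of GRCm38 (mm10) from 44549616 to 44553951. Levels were 45.4 and 42.3 FPKM against 41.1 and 38.2 FPKM. The groups did not overlap, but the gap between the nearest libraries was smaller than the gap between replicates. The difference was -0.14 (standard error 0.08, 95% interval -0.36 to 0.08, limma, adjusted p = 0.531).
*Nr1h3* (LXRα, known from liver, fat and macrophages) lies on chromosome 2 from 91184061 to 91202834. Levels were 10.3 and 15.8 FPKM (Cont-IMQ) against 10.2 FPKM in both 7KC-IMQ libraries. Only Cont-IMQ replicate 2 stood apart, and Cont-IMQ replicate 1 exceeded the 7KC-IMQ libraries by less than the counting error. The difference of -0.29 (standard error 0.21, 95% interval -0.84 to 0.25, limma, adjusted p = 0.594) was -0.01 without Cont-IMQ replicate 2.
Within a library, a ratio of both receptors does not depend on the scaling between libraries. *Nr1h2* exceeded *Nr1h3* by 4.42-fold and 2.68-fold in the Cont-IMQ group and by 4.02-fold and 3.75-fold in the 7KC-IMQ group. Thus, the 7KC-IMQ libraries lay between the Cont-IMQ libraries, and the difference of 0.17 on the log2 scale gave p = 1.0 in a two-sided exact permutation test, for which 2 libraries against 2 allow no p below 0.333.

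*Abca1*, which encodes the transporter that loads cholesterol onto lipid-poor apolipoproteins, lies on chromosome 4 from 53030787 to 53159895. It had 12.5 and 13.6 FPKM (Cont-IMQ) against 9.94 and 11.0 FPKM (7KC-IMQ), so that both 7KC-IMQ libraries were below both Cont-IMQ libraries. The difference of -0.29 (standard error 0.10, 95% interval -0.55 to -0.03) did not pass after adjustment (limma, adjusted p = 0.366). With each library left out in turn, it was between -0.36 and -0.22.
*Abcg1*, the transporter that delivers cholesterol and 7KC to mature HDL, lies on chromosome 17 from 31057675 to 31117988. Its values were 8.94 and 8.31 FPKM (Cont-IMQ) against 8.04 and 8.43 FPKM (7KC-IMQ), and the groups overlapped. The difference was -0.06 (standard error 0.09, limma, adjusted p = 0.823), with a 95% interval from -0.31 to 0.19. *Abcg1* had the smallest SD of the 8 genes relative to its level.
The ratio of *Abcg1* to *Abca1* was 0.716 and 0.613 in the Cont-IMQ group and 0.809 and 0.767 in the 7KC-IMQ group. Both 7KC-IMQ libraries were higher, by 0.25 on the log2 scale, and the two-sided exact permutation test gave p = 0.333, the smallest that it can give here. The difference was 0.14 without Cont-IMQ replicate 2 and 0.36 without Cont-IMQ replicate 1.

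*Mylip* (chromosome 13, from 45389742 to 45412022) encodes a ubiquitin ligase that limits the uptake of lipoproteins. It had the largest difference of the 8 genes, with 20.4 and 16.7 FPKM (Cont-IMQ) against 13.1 and 11.5 FPKM (7KC-IMQ). Both 7KC-IMQ libraries were lower, and the difference was -0.55 (standard error 0.13, 95% interval -0.90 to -0.20, limma, adjusted p = 0.356). Leaving out single libraries moved it between -0.69 and -0.42. From its longest transcript, estimated reads were 885 and 722 in the Cont-IMQ group and 613 and 491 in the 7KC-IMQ group. The counting error of these estimates was at most 4.51%. MYLIP acts on protein, which was not measured.

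*Lpcat3* (chromosome 6, from 124663027 to 124704418) encodes an enzyme that puts polyunsaturated fatty acids into phospholipids. It was the 1 gene of the 8 with a higher mean in the 7KC-IMQ group, with 50.4 and 42.3 FPKM (Cont-IMQ) against 55.5 and 58.4 FPKM (7KC-IMQ). The groups did not overlap, and the difference was 0.30 (standard error 0.11, 95% interval 0.01 to 0.58, limma, adjusted p = 0.374). Without Cont-IMQ replicate 2, its lowest library, the difference was 0.17. In GENCODE M21, 334 of the 3268 exon bases of *Lpcat3* overlap *Emg1*, a gene of ribosome assembly on the opposite strand, and 7.49% of its 75-base windows also occur in *Emg1* transcripts. *Emg1* itself had 76.9 and 87.5 FPKM (Cont-IMQ) against 97.4 and 101 FPKM (7KC-IMQ). The library kit keeps the strand, whether the authors' FPKM used it is not given in the sources used here, and the part of *Emg1* reads in the result was not tested.
*Srebf1* (chromosome 11, from 60199089 to 60222581) encodes SREBP-1a and SREBP-1c, regulators of fatty acid synthesis, whose transcripts the files do not separate. It had 34.2 and 28.5 FPKM (Cont-IMQ) against 32.3 and 30.1 FPKM (7KC-IMQ). The 7KC-IMQ libraries lay between the Cont-IMQ libraries, and the difference rounded to 0.00 (standard error 0.11, 95% interval -0.30 to 0.30, limma, adjusted p = 0.998). *Abca1* and *Srebf1*, whose promoter windows hold the nearly identical 16 bases shown above, therefore differed between the diets by -0.29 and by 0.00, and the difference between these 2 values was not tested.

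*Apoe* (chromosome 7, from 19696109 to 19699188) encodes apolipoprotein E, a carrier of lipids that macrophages and other skin cells secrete. It had 1792 and 1981 FPKM (Cont-IMQ) against 1557 and 1518 FPKM (7KC-IMQ), without overlap. The difference was -0.29 (standard error 0.11, 95% interval -0.59 to 0.01, limma, adjusted p = 0.393), and it lay between -0.37 and -0.22 with each library left out in turn. Of the 12 macrophage markers, 9 had a lower mean in the 7KC-IMQ group (against 51.3% of all genes) and 3 (*Csf1r*, *Cd68* and *Lyz2*) did so without overlap (near the 22.9% of all genes). Their summed level overlapped between the groups, with 1032 and 1256 FPKM (Cont-IMQ) against 988 and 1049.9 FPKM (7KC-IMQ), and none of the 12 markers was at 0. *Lyz2*, which encodes lysozyme of macrophages and neutrophils, had 210.1 and 233 FPKM against 191 and 175 FPKM. Like *Apoe*, *Nr1h3* and *Abca1*, the macrophage sum was highest in Cont-IMQ replicate 2. The adipocyte and hair follicle sums described below were also highest in that library, whereas *Mylip* was highest in Cont-IMQ replicate 1. The part of macrophage content in these results was not tested.

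The wider LXR system was described by 4 lists compiled by hand. No gene of these lists passed after adjustment (limma, adjusted p = 0.352 or more), and 6 of the 59 tested (10.2%) had an unadjusted p-value under 0.05, a smaller share than that of all genes tested (2061 of 15896). Counts without overlap in these lists are read against 23.9% of all genes higher and 22.9% lower. Among 20 other genes known as LXR targets, 17 were tested, of which 4 were higher and 2 lower without overlap (23.5% and 11.8%), with a median difference of 0.03. *Abcg5*, *Abcg8* and *Cyp7a1*, sterol genes of liver and gut, were under the filter. *Pltp*, which encodes the phospholipid transfer protein of plasma, had 71.7 and 90.4 FPKM (Cont-IMQ) against 63.8 and 64.0 FPKM (7KC-IMQ), a difference of -0.33 (limma, adjusted p = 0.388) that was -0.16 without Cont-IMQ replicate 2. *Apoc1*, the neighbor of *Apoe* in the apolipoprotein cluster, had 577 and 618 FPKM against 544 and 556 FPKM (-0.12, limma, adjusted p = 0.611). *Pltp* and *Apoc1* were the 2 genes of this list lower without overlap, and its other lipoprotein genes overlapped between the groups.
The 4 genes of the same list that were higher without overlap were *Fasn*, *Scd1*, *Smpdl3a* and *Arl4c*. *Fasn* had 30.5 and 29.2 FPKM (Cont-IMQ) against 33.6 and 35.5 FPKM (7KC-IMQ) (0.20, unadjusted p = 0.0462, limma, adjusted p = 0.378). *Scd1*, the main stearoyl-CoA desaturase of sebaceous glands, had 257 and 173 FPKM against 275 and 267 FPKM (0.36, limma, adjusted p = 0.516), and the difference was 0.07 without Cont-IMQ replicate 2. *Smpdl3a*, a phosphodiesterase gene of macrophages, had 108 and 102 FPKM against 113 and 143 FPKM (0.28, limma, adjusted p = 0.452), or 0.11 without 7KC-IMQ replicate 2, and *Lpl*, lipoprotein lipase, overlapped, with a mean over the 4 libraries of 78.1 FPKM. *Fasn* shares the 16 bases of *Abca1*, and the differences of these 2 genes had opposite signs. Neither passed after adjustment, and the contrast between them was not tested.

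**Figure D3:**
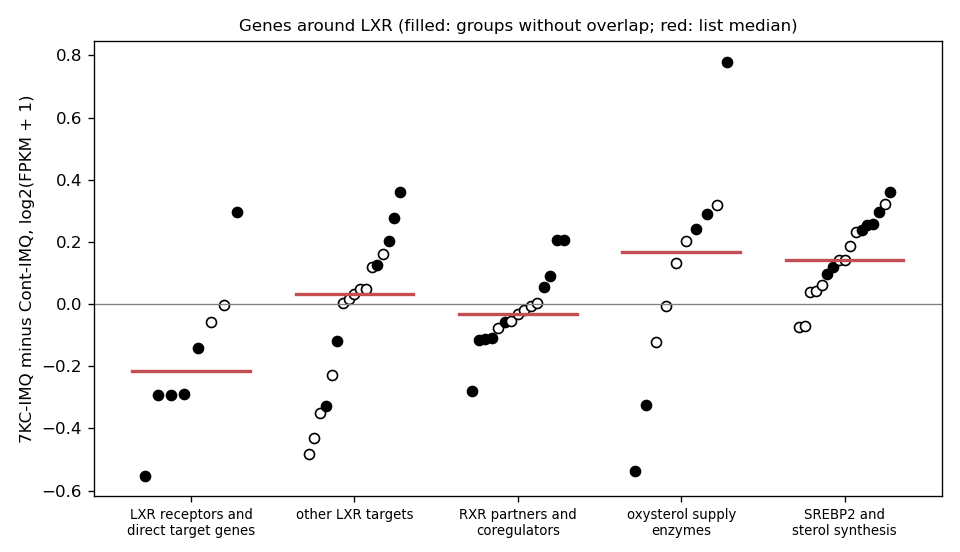
Difference between the diets (y axis, log2(FPKM + 1), 7KC-IMQ minus Cont-IMQ) for each tested gene of the LXR system, with 1 column per list and genes sorted by value. Filled points mark groups without overlap and red bars the list medians, which are -0.22 for the receptors and direct target genes, 0.03 for other LXR targets, -0.03 for RXR partners and coregulators, 0.17 for oxysterol supply enzymes and 0.14 for SREBP2 and sterol synthesis.

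Of the 15 RXR partners and coregulators, 4 were higher and 5 lower without overlap (26.7% and 33.3%), with a median difference of -0.03. *Rxra*, the main RXR of epidermis, had a mean of 64.7 FPKM over the 4 libraries and overlapped between the groups (-0.03, limma, adjusted p = 0.890), as did *Rxrb* (22.7 FPKM, -0.06). Within the corepressor complex of nuclear receptors, *Hdac3* had 42.5 and 39.4 FPKM (Cont-IMQ) against 46.3 and 48.3 FPKM (7KC-IMQ), and *Gps2* had 29.4 and 30.8 FPKM against 33.0 and 36.9 FPKM. The differences were 0.20 and 0.21 (limma, adjusted p = 0.384 and 0.426). Of the coactivators, *Ncoa2* had 9.60 and 9.92 FPKM against 7.97 and 7.75 FPKM (-0.28, unadjusted p = 0.0272, limma, adjusted p = 0.365) and *Ncoa1* 8.35 and 8.50 FPKM against 7.89 and 7.52 FPKM (-0.11).
Of the 10 enzymes that make or remove oxysterols, 3 were higher and 2 lower without overlap (near the shares of all genes), with a median difference of 0.17, which lay between 0.01 and 0.14 when single libraries were left out. *Cyp27a1* (27-hydroxylase) had 10.5 and 14.5 FPKM (Cont-IMQ) against 9.66 and 6.96 FPKM (7KC-IMQ), a difference of -0.54 (limma, adjusted p = 0.400) that was -0.32 without Cont-IMQ replicate 2 and -0.33 without 7KC-IMQ replicate 2. *Ch25h* (cholesterol 25-hydroxylase) had 3.12 and 2.87 FPKM against 2.44 and 1.96 FPKM (-0.32, limma, adjusted p = 0.397), and the difference was -0.22 without 7KC-IMQ replicate 2. *Cyp7b1*, which hydroxylates and inactivates such oxysterols, had 7.22 and 5.69 FPKM against 12.1 and 11.4 FPKM, the largest difference of these lists and of the 8 genes (0.78, standard error 0.13, limma, adjusted p = 0.352). *Soat1*, which esterifies sterols, had 22.9 and 24.3 FPKM against 29.0 and 29.1 FPKM (0.29, limma, adjusted p = 0.356), and *Sult2b1*, which sulfates them, 152 and 137 FPKM against 161 and 183 FPKM (0.24, limma, adjusted p = 0.419). *Soat1* is also 1 of the 9 sebaceous gland markers described below and is counted in both lists, and *Sult2b1* had a difference of 0.15 without 7KC-IMQ replicate 2. *Hsd11b1*, which encodes an enzyme that reduces 7KC, overlapped between the groups, with a mean of 48.0 FPKM.
Sterol synthesis, driven by SREBP2 when sterols are low, had 15 of 17 genes with a higher mean in the 7KC-IMQ group (88.2%, against 48.7% of all genes), 7 of them without overlap (41.2%, against 23.9%) and none lower without overlap, with a median of 0.14. *Mvd* had 50.4 and 32.7 FPKM (Cont-IMQ) against 52.0 and 53.0 FPKM (7KC-IMQ), a difference of 0.36, *Idi1* 130 and 109 FPKM against 135 and 148 FPKM (0.25), and *Cyp51* 83.2 and 70.8 FPKM against 88.6 and 95.5 FPKM (0.26) (limma, adjusted p = 0.531, 0.441 and 0.410). Without Cont-IMQ replicate 2 these differences were 0.06, 0.13 and 0.14. *Fdps*, *Msmo1* and *Hmgcs1*, the most abundant of the list, overlapped between the groups. Cont-IMQ replicate 2 was low in many of these genes, and the list median was 0.05 without it and 0.28 without Cont-IMQ replicate 1.

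The widest spread among the cell type markers was in the 9 hair follicle markers, between the Cont-IMQ replicates. The 9 hair follicle markers summed to 109 FPKM in Cont-IMQ replicate 1 and to 1382 FPKM in Cont-IMQ replicate 2, and to 409 and 360 FPKM in the 7KC-IMQ group. The 9 sebaceous gland markers summed to 1409 and 1192 FPKM (Cont-IMQ) against 1674 and 1567 FPKM (7KC-IMQ), with 6 of the 9 higher (66.7%) and 1 lower (11.1%) without overlap, against 23.9% and 22.9% of all genes. The largest part of each sum was the keratin gene *Krt79*, with 827 and 683 FPKM against 986 and 906 FPKM. *Elovl3*, a fatty acid elongase of sebocytes, had the largest difference of the 9, with 128 and 110 FPKM against 174 and 175 FPKM. The 2 markers with a lower mean in the 7KC-IMQ group were *Awat2* and *Scd3*. *Scd3* had 24.3 and 22.1 FPKM against 22.2 and 14.5 FPKM, with overlap. *Lpcat3*, *Scd1* and *Fasn* were higher in the same libraries, and the part of sebaceous gland content in their values was not tested. The 8 adipocyte markers, 3 of which were higher (37.5%) and none lower without overlap, summed to 1620 and 2453 FPKM against 2380 and 1839 FPKM, the 7 keratinocyte markers to 29100 and 20749 FPKM against 23163 and 25564 FPKM and the 7 skeletal muscle markers to 7160 and 7045 FPKM against 5835 and 6959 FPKM. The 7 hepatocyte markers summed to at most 8.77 FPKM.

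**Figure D4:**
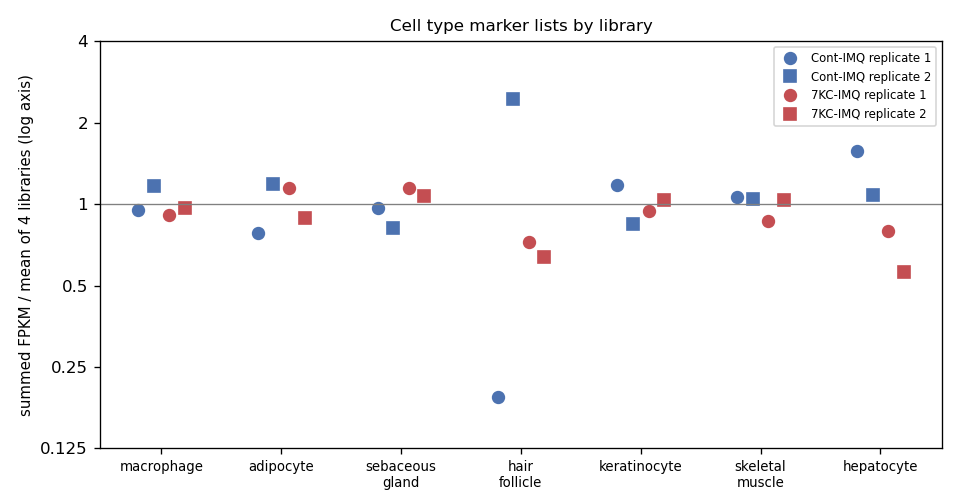
Summed FPKM of 7 marker lists in each library, divided by the mean of the 4 libraries (log y axis). Circles are replicates 1 and squares replicates 2, in blue for Cont-IMQ and red for 7KC-IMQ. Both Cont-IMQ libraries lie at the extremes of the hair follicle list (109 and 1382 FPKM), and the sebaceous gland list is higher in both 7KC-IMQ libraries.

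Genes most like *Abca1* and *Abcg1* in pattern were found by the Euclidean distance of centred log2(FPKM + 1) values over the 4 libraries, among 9590 genes with a mean of at least 5 FPKM. Those nearest to *Abca1* were *Mlycd*, *Lrch4*, *Wdtc1*, *Atp13a2* and *Sash1*, at distances of 0.0133 to 0.051. *Mlycd*, which encodes malonyl-CoA decarboxylase, had 17.0 and 18.3 FPKM (Cont-IMQ) against 13.7 and 15.2 FPKM (7KC-IMQ). The nearest to *Abcg1* were *Mrpl40*, *Vps54*, *Ccdc71*, *Taf1c* and *Csk*, at 0.00832 to 0.0173. Over so few libraries near patterns are common, and 55 genes lay within 0.1 of *Abca1* and 856 within 0.1 of *Abcg1*. These 2 counts are not alike in meaning. *Abcg1* itself lay only 0.0988 from a flat pattern, so a gene without any variation also falls within 0.1 of it. *Abca1* lay 0.314 from a flat pattern.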

How the data were processed

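RNA of 4 dorsal skin libraries, 2 per group, was sequenced as 75-base single-end reads by the authors, from a stranded mRNA kit. Groups and replicate numbers were taken from the sample titles. The deposited files give FPKM per gene symbol, 1 file per library. Per the submitters' processing notes, the authors used TopHat2 2.1.1, Bowtie2 2.2.8, SAMtools 0.1.18 and Cuffdiff 2.2.1 with mm10, whereas the study's methods name other releases and Cufflinks. The gene annotation is not given in the sources used here. The files hold no read counts, so no count model was used, and an entry of 0 may stand for an estimate that failed.

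From these values, log2(FPKM + 1) was computed for 15896 genes with a mean of at least 0.1 FPKM and compared by limma 3.58.1 in R 4.3.3 (lmFit and eBayes with a mean-variance trend, Benjamini-Hochberg over all genes tested, threshold 0.05). A fold on this scale understates the change of low genes. The fit was tested on simulated data. Depth was estimated as the number of reads that brings low FPKM of genes with a single transcript nearest to whole reads. Counting errors cover counting only, whereas the intervals come from the limma fit and rest on the spread between libraries. Coordinates and transcripts came from GENCODE M21 (GRCm38), and promoter windows from RefSeq (GRCm38.p6).

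Members and lists were chosen with earlier results of these data known. All 8 LXR genes are named. Of each wider list, the 4 genes with the highest level and up to 4 with the largest difference without overlap (mean of at least 1 FPKM) are named, and *Emg1*, *Arl4c*, *Mir24-2* and the genes under the filter were added after their values were seen. Values of 3 genes of the wider lists are not reported here. Alternatives were another pseudocount, other filters, median ratio scaling, quantile normalization, no variance trend, a replicate block and leaving out each library.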

Additional observations from a re-analysis of the deposited data

How the results depend on the processing

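None of the 8 LXR genes passed the threshold under any of the 11 alternatives (limma, adjusted p = 0.286 to 1.0). The 7 genes other than *Srebf1* kept their direction in all of them, whereas *Srebf1* lay between -0.13 and 0.12 with each library left out in turn (0.12 without Cont-IMQ replicate 1 and 0.05 without 7KC-IMQ replicate 2). The count of these genes lower without overlap was 5 to 7, and that of genes higher 1 to 2, with each library left out, an alternative chosen after seeing the data, where with fewer libraries 33.5% to 39.1% and 33.3% to 38.8% of genes tested are so arranged. The log2 difference of the *Nr1h2* to *Nr1h3* ratio was -0.19 without Cont-IMQ replicate 2 and up to 0.53 without another library. Over all genes, 1 passed, against 2 with a pseudocount of 0.1, 71 without a filter (5 higher and 66 lower among 24346 genes), and 1 to 9 with each library left out, 9 without Cont-IMQ replicate 1 and 5 without Cont-IMQ replicate 2. Nothing in the labels says that a replicate number marks a shared litter or day, and the differences between replicates 1 and 2 correlated little between the groups (r = 0.0651 over 15896 genes). With the replicate number as a block, 1 gene passed and no LXR gene did. At an unadjusted p-value under 0.05, 0 to 8 genes of a wider list were counted, the 8 being sterol synthesis genes without Cont-IMQ replicate 1, where 14.7% of all genes were counted. List medians near 0 changed sign, to -0.03 for other LXR targets without Cont-IMQ replicate 1 and to 0.02 for RXR partners and coregulators without 7KC-IMQ replicate 1. With 2 libraries per group, the intervals given above set the precision, and smaller differences could not be resolved.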
